A study of Mus musculus with 18 samples.

Results

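Cytochrome P450 genes outside the best known hepatic targets were followed in the livers of riboflavin-deficient mice. The members were the protein-coding genes whose symbol starts with Cyp and a digit, without 16 genes left out by name: Cyp2b9, Cyp2b10, Cyp2b13, Cyp3a11, Cyp2c29, Cyp2d9, Cyp4a10, Cyp4a14, Cyp4a31, Cyp4a32, Cyp4a12a, Cyp7a1, Cyp7b1, Cyp8b1, Cyp27a1 and Cyp51. This rule gave 84 members in 35 subfamilies, of 100 such P450 genes and of 54532 genes in each table, and it used no measured value. RNA-seq was performed on whole liver of male C57BL/6J wild-type mice, each library from 1 mouse, all fasted overnight. In the experiment without fenofibrate, 5 mice ate a control diet (Ctrl) and 5 a riboflavin-deficient diet (B2D) for 1 month. In the experiment with fenofibrate (FF), a drug that activates the nuclear receptor PPARα, the control (Ctrl+FF, 4 mice) and deficient (B2D+FF, 4 mice) diets were fed for 9 weeks, with fenofibrate from week 7 to week 9 and again 2 hours before harvest. The drug, the time on diet and the table of values changed together between the experiments and cannot be told apart, so groups were tested only within an experiment.

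Cytochromes P450 are heme enzymes that insert an oxygen atom into drugs, steroids, fatty acids and bile acid precursors, and hepatocytes hold most of the body's supply. Microsomal P450s receive their electrons from P450 oxidoreductase (Por), which carries both flavin cofactors, FAD and FMN, and mitochondrial P450s receive theirs from the FAD enzyme ferredoxin reductase (Fdxr) by way of ferredoxin. Riboflavin is the vitamin from which FAD and FMN are made. In mouse liver many of these genes lie in clusters of close relatives, differ between the zones of the lobule, and differ between males and females.

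Between 15320729 and 21898502 reads fell on genes in each library, and the members took 1.42% to 2.43% of them, with 54 to 61 members detected per library. Hepatocyte markers summed to between 19010 and 47011 FPKM (fragments per kilobase of gene, scaled to library size, the unit of every level given here), and all 18 libraries carried the Y-linked genes of a male. Among the marker lists of other cell types, 1 marker passed the test without fenofibrate, the Kupffer cell gene Clec4f, which was lower in B2D, and 1 with fenofibrate, the sinusoidal endothelial gene Lyve1, which was higher in B2D+FF, as was the hepatocyte marker Ass1. The summed Kupffer cell markers ranged from 42.5 to 56.3 in Ctrl, 31.9 to 48.3 in B2D, 36.9 to 62.0 in Ctrl+FF and 22.0 to 37.9 in B2D+FF. Their part in the results was not tested. In whole liver, fewer cells of a type and less RNA per cell cannot be told apart.

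The levels of the members were dominated by Cyp2e1, which oxidizes ethanol and small solvents. It accounted for 46.4% to 65.5% of the members' summed FPKM in each library. Its level was 4839.6 ± 562 (SD, n = 5) in Ctrl, 4431 ± 829.5 (n = 5) in B2D, 5325 ± 445 (n = 4) in Ctrl+FF and 5429 ± 1205 (n = 4) in B2D+FF, and the groups overlapped in both experiments (limma adjusted p = 0.658 and 0.996). The summed members were 9236 ± 1518 (SD, n = 5) in Ctrl, 7991 ± 1269 (n = 5) in B2D, 8470 ± 439 (n = 4) in Ctrl+FF and 8881 ± 1482 (n = 4) in B2D+FF, and values written with ± below are means and SDs with these n. Subfamilies Cyp2d, Cyp2c, Cyp3a, Cyp2f, Cyp2a and Cyp2j came next in Ctrl, apart from Cyp1a, whose mean rests on 1 library. The sum of the 7 Cyp2d members was 1143 ± 111 in Ctrl against 928 ± 90.9 in B2D, and that of the 14 Cyp2c members was 893 ± 163 against 973 ± 212. At the other end, 14 members had 0 reads in every library: Cyp19a1, Cyp24a1, Cyp2b19, Cyp2b23, Cyp2j7, Cyp2j12, Cyp2w1, Cyp3a41a, Cyp3a41b, Cyp4a29, Cyp4a30b, Cyp4f37, Cyp4f40 and Cyp4x1. A count of 0 allows up to 3 reads in a library, by counting error alone.

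**Figure D1:**
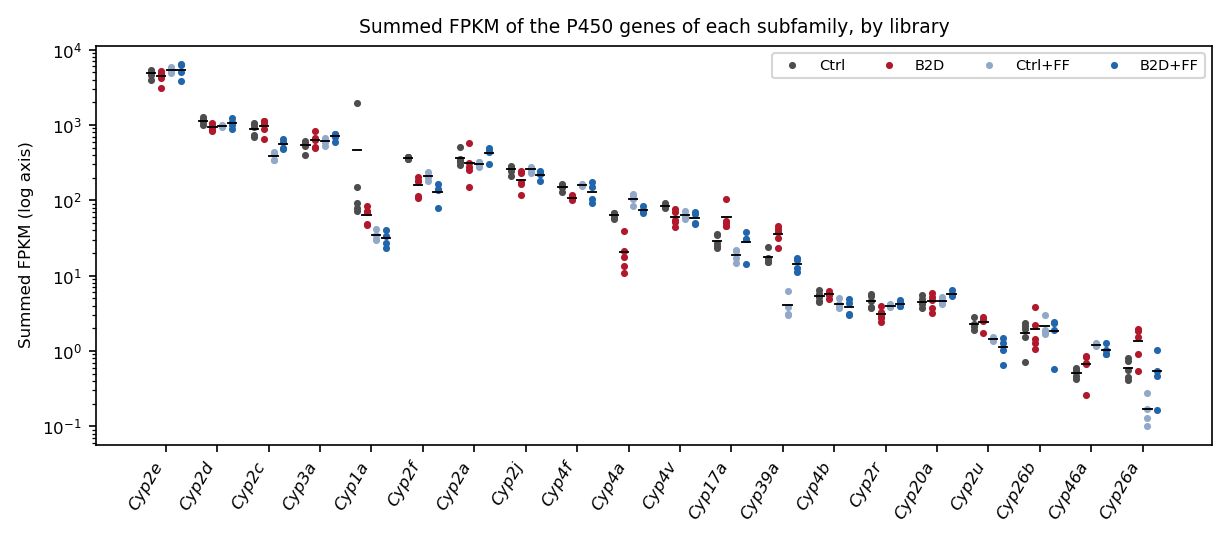
Summed FPKM of the members of each of the 20 subfamilies with a tested member (logarithmic axis), with a point for each library and a line at the group mean, in the 4 groups. Cyp2e lies highest in every group, Cyp2f and Cyp4a lie lower in both deficient groups without overlap, and the Ctrl group of Cyp1a is stretched by 1 library.

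Riboflavin deficiency without fenofibrate lowered 4 members and raised 2, of 44 members with a mean FPKM of at least 0.5 that could be tested. Lower in B2D were Cyp2f2, which activates naphthalene and marks periportal hepatocytes, Cyp2d40 of the drug-oxidizing Cyp2d cluster, Cyp4a12b, a fatty acid hydroxylase that is higher in males, and Cyp4f15, a hydroxylase of leukotrienes and long fatty acids. Higher were Cyp39a1, which hydroxylates 24-hydroxycholesterol on the way to bile acids, and Cyp17a1, the steroid 17-hydroxylase and lyase. These calls used limma on log2(FPKM + 1) with Benjamini-Hochberg adjustment over all 11574 genes tested, at an adjusted p under 0.05. The members' 9.09% lower and 4.55% higher stood beside 1.94% and 0.769% of all genes tested. The groups did not overlap for 5 members that were lower in B2D (the 4 above and Cyp4v3) and 2 that were higher (Cyp17a1 and Cyp2a4), beside 2.89% and 2.08% of all genes. The median log2 fold change was 0.014 for members and -0.0013 for all genes tested, with 22 members below 0 and 22 above. At an unadjusted p under 0.05, 22 of 44 members passed in either direction, against 18.4% of all genes.

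With fenofibrate, the deficient diet lowered 4 and raised 4 of 43 members tested, and 5 of these 8 belong to the Cyp2c subfamily. Lower in B2D+FF were Cyp2c67, Cyp2c23, Cyp2d40 and Cyp4f14. Higher were Cyp2c37, Cyp39a1, Cyp2c68 and Cyp2c40. Each direction made up 9.30% of the members tested, beside 2.21% of the 11878 genes tested called lower and 2.24% called higher (limma, adjusted as above). When the libraries were rescaled to a common upper quartile, the all-gene calls shifted from 263 lower and 266 higher to 366 lower and 223 higher, while the members' calls went to 5 lower and 4 higher. Groups did not overlap for 6 members lower (the 4 above, Cyp2f2 and Cyp4a12b) and 6 higher (the 4 above, Cyp20a1 and Cyp2c50), beside 6.44% and 7.82% of all genes. At an unadjusted p under 0.05, 16 members (37.2%) passed against 21.2% of all genes, and the median log2 fold change was 0.024 for members and 0.013 for all genes.

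Of the 12 members called in either experiment, Cyp2d40 (lower) and Cyp39a1 (higher) were called in both. Cyp2d40, Cyp2f2 and Cyp4a12b were lower without overlap in both, and no member was higher without overlap in both. The shares of all genes that were called, or did not overlap, in both experiments were not computed. These counts are therefore a description of the members alone.

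**Figure D2:**
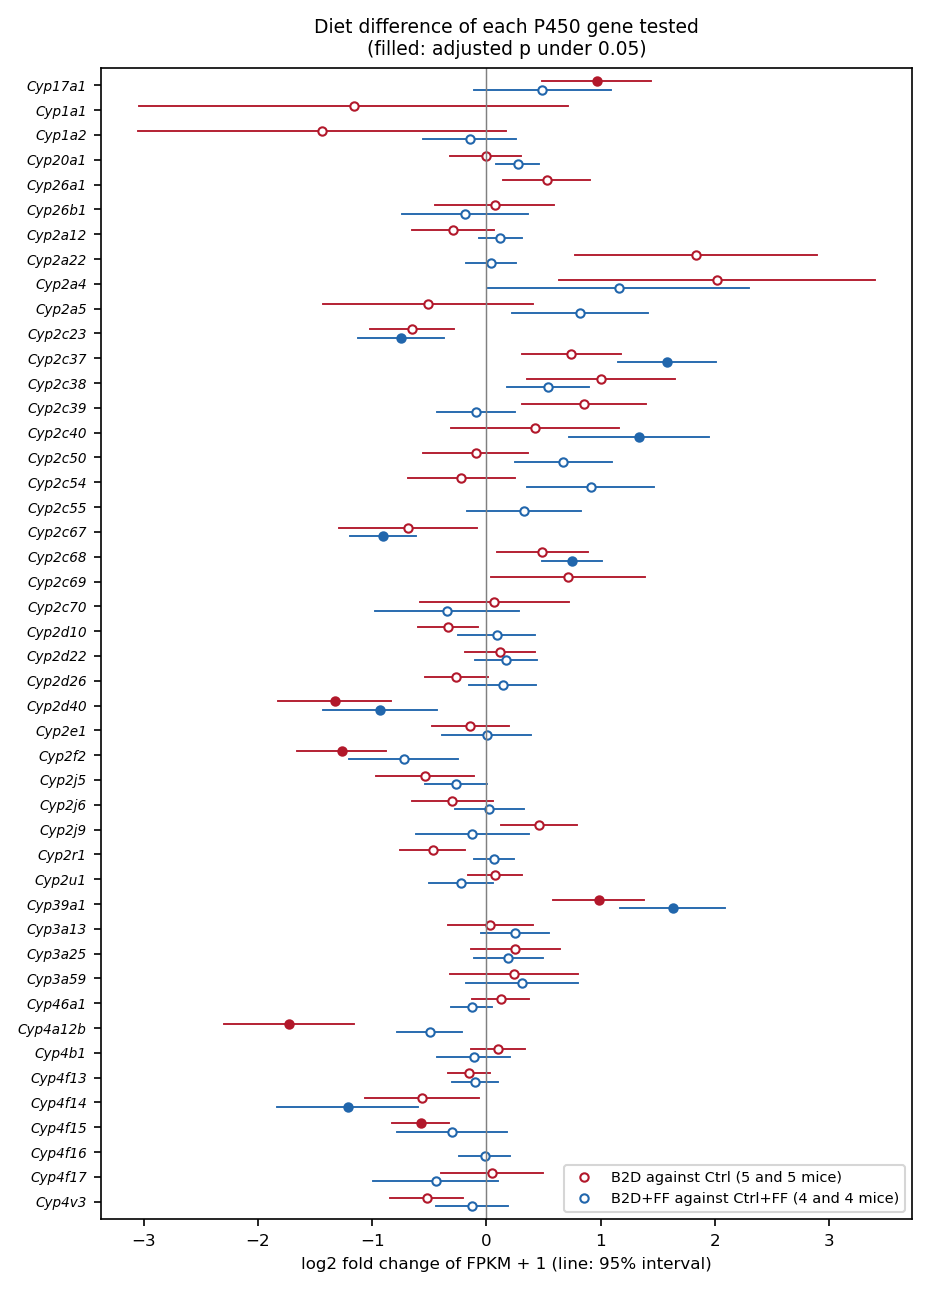
Log2 fold change on the log2(FPKM + 1) scale with its 95% interval for the members tested, B2D against Ctrl and B2D+FF against Ctrl+FF, with filled circles for adjusted p under 0.05 and open circles otherwise. Cyp4a12b, Cyp2d40 and Cyp2f2 have the lowest called values without fenofibrate, and Cyp39a1 and Cyp2c37 the highest with it.

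Cyp2f2 (ENSMUSG00000052974, chr7:27119909-27133660, plus strand of GRCm38) was the only gene on the periportal list. Its level was 381, 351, 374, 381 and 355 in Ctrl and 183, 112, 206, 108 and 180.0 in B2D. All 5 B2D mice lay under the Ctrl range, and the Ctrl mice lay close together. The log2 fold change was -1.26 (SE 0.18, 95% interval -1.66 to -0.87) with a limma adjusted p of 0.00557, and the call held with each library left out in turn. With fenofibrate the levels were 183, 209.8, 205 and 239 in Ctrl+FF and 78.0, 137, 143 and 163 in B2D+FF. Here too each deficient mouse was below each control, but the log2 fold change of -0.72 (SE 0.21) had a limma adjusted p of 0.0871.

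Cyp2d40 (chr15:82759833-82764183, minus strand) lies in the Cyp2d cluster on chromosome 15. It was at 37.6, 35.0, 22.1, 58.3 and 25.6 in Ctrl and at 11.6, 12.1, 14.5, 10.2 and 16.7 in B2D. The Ctrl mice were spread more widely than the B2D mice, all of which were lower. This was a log2 fold change of -1.33 (SE 0.23, limma adjusted p = 0.0118), and this call also held with each library left out, though not with no filter (adjusted p = 0.0555). With fenofibrate it was at 13.0, 14.0, 13.5 and 8.27 in Ctrl+FF and at 3.74, 8.23, 6.88 and 5.19 in B2D+FF, and Ctrl+FF 4 came within a small margin of the highest B2D+FF mouse. This change of -0.93 (SE 0.22, limma adjusted p = 0.0490) lay just under the threshold and kept its call only without Ctrl+FF 4 or B2D+FF 2, with adjusted p up to 0.138 when another library was left out. The call was also lost with a pseudocount of 0.1 (adjusted p = 0.0525), with no filter (0.123) and with all 4 groups in 1 fit (0.0511). The other 3 tested Cyp2d members did not pass the test without fenofibrate. Cyp2d10 was at 521 ± 77.9 in Ctrl and 409 ± 22.7 in B2D (limma adjusted p = 0.167), Cyp2d26 at 526 ± 50.8 and 441 ± 67.9 (0.296), and Cyp2d22 at 59.1 ± 4.82 and 65.0 ± 14.3 (0.70).

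The Cyp2c subfamily on chromosome 19 had 14 members, 11 of them tested in each experiment, which oxidize drugs, steroids and arachidonic acid. Among them Cyp2c67 (chr19:39608842-39649051) and Cyp2c68 (chr19:39688834-39741054), neighbours on the minus strand, moved in opposite directions. Cyp2c67 was at 77.5, 55.8, 76.2 and 61.4 in Ctrl+FF and at 36.1, 39.1, 30.7 and 36.1 in B2D+FF, whereas Cyp2c68 was at 67.6, 65.9, 64.9 and 60.4 in Ctrl+FF and at 125, 103, 90.8 and 123 in B2D+FF. Neither gene's groups overlapped. For Cyp2c67 the log2 fold change was -0.90 (SE 0.13, limma adjusted p = 0.00752) and for Cyp2c68 it was 0.75 (SE 0.12, limma adjusted p = 0.0105). Both held with each library left out, but the Cyp2c67 call was lost when all 4 groups were fitted together (adjusted p = 0.0653).

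Without fenofibrate neither gene passed the test. Cyp2c67 was at 124, 159, 84.1, 165 and 159.7 in Ctrl and at 79.5, 48.3, 147, 67.7 and 104 in B2D, with a log2 fold change of -0.69 (SE 0.28, limma adjusted p = 0.215). Cyp2c68 was at 86.9, 145, 92.3, 117 and 114 in Ctrl and at 158, 107, 172, 146 and 202 in B2D, with a log2 fold change of 0.49 (SE 0.18, limma adjusted p = 0.184). The groups of each gene overlapped. Within each mouse the ratio of Cyp2c67 to Cyp2c68 was 1.25 ± 0.235 in Ctrl (0.912 to 1.43), 0.558 ± 0.168 in B2D (0.453 to 0.855), 1.05 ± 0.150 in Ctrl+FF (0.847 to 1.18) and 0.326 ± 0.0429 in B2D+FF (0.290 to 0.381). The ratios of the deficient mice lay below those of the control mice in both experiments. This pair was chosen after its values were seen, so the ratio is a description with no test.

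The opposite values come from genes that are alike in sequence, although most 150-base windows of each transcript occur in no other gene. The coding sequences of Cyp2c67 and Cyp2c68 match at 97.2% of 1476 bases, and of the 150-base windows of their transcripts 13.0% and 8.83% occur unchanged in another gene, most often in Cyp2c40. Reads from such stretches could be assigned to a neighbour or dropped by the authors' counting, so the split of reads within this group is uncertain. The sum of Cyp2c67, Cyp2c68, Cyp2c69 and Cyp2c40 was 252 ± 54.6 in Ctrl and 251 ± 70.5 in B2D, and 133 ± 12.4 in Ctrl+FF and 149.9 ± 19.8 in B2D+FF, with overlap in both. The 90 coding bases around the codon of the cysteine that binds the heme iron (bases 1252 to 1341 of each coding sequence in the mouse GENCODE transcripts) show how close the pair is. They are printed with the only base that differs in capitals, and Cyp2c40 and Cyp2c69 carry the same 90 bases as Cyp2c67.
Cyp2c67: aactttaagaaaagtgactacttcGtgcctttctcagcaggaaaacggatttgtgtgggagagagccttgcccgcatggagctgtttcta
Cyp2c68: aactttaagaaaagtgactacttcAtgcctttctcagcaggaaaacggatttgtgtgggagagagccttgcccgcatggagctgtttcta

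Upstream the genes are less alike, and the matching stretch of their promoters is printed because it lies outside the counted exons over most of its length. In the RefSeq promoters (GRCm38.p6, minus strand) it spans chr19:39649041-39649292 for Cyp2c67, from -250 to 2 relative to the start site, and chr19:39741052-39741304 for Cyp2c68, from -203 to 50. Of 251 aligned bases 91.6% were identical, with 21 mismatches and 3 bases without a partner, which are in capitals.
Cyp2c67: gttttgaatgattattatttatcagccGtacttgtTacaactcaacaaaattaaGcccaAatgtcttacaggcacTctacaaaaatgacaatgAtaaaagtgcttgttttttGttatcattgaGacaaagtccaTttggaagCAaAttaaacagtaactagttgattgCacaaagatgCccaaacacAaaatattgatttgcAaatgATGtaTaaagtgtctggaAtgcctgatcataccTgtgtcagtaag
Cyp2c68: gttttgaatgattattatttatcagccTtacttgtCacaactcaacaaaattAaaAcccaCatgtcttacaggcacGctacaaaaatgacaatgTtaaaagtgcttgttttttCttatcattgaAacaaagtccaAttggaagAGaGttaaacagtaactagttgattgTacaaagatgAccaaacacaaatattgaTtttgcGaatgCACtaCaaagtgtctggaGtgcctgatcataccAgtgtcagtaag

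**Figure D3:**
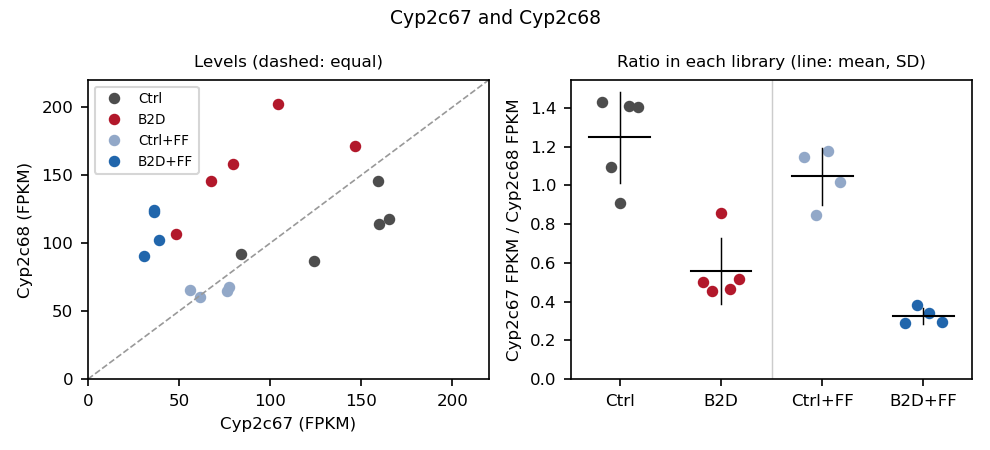
Left, FPKM of Cyp2c68 against FPKM of Cyp2c67 with a point for each library. Right, the ratio of Cyp2c67 to Cyp2c68 in each library, with the mean and SD of each group. The 5 Ctrl ratios lie between 0.912 and 1.43 and the 4 B2D+FF ratios between 0.290 and 0.381.

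Cyp2c40 (chr19:39767071-39812814, minus strand), the next gene of this group, was low in all mice. It was at 0.598, 0.865, 0.650 and 0.579 in Ctrl+FF and at 3.54, 4.32, 1.19 and 4.93 in B2D+FF, from 20 to 206 reads. Each deficient mouse was higher, B2D+FF 3 by the least. The log2 fold change of 1.33 (SE 0.27, limma adjusted p = 0.0277) kept its call only without B2D+FF 3, with an adjusted p of 0.0580 to 0.0849 without any other library. In the experiment without fenofibrate it was at 1.77 ± 1.04 and 2.93 ± 1.88 (limma adjusted p = 0.524).

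Cyp2c37 (chr19:39992424-40012243, plus strand), an arachidonic acid hydroxylase induced through the receptor CAR, had the lowest adjusted p of any member with fenofibrate. It was at 35.0, 34.4, 36.1 and 32.6 in Ctrl+FF and at 70.5, 146, 100.4 and 119 in B2D+FF. The control mice were nearly equal and every deficient mouse was above them. The log2 fold change was 1.58 (SE 0.19, 95% interval 1.15 to 2.01, limma adjusted p = 0.00391), and it held with each library left out. Without fenofibrate it was at 120.4, 170.3, 151, 149 and 214 in Ctrl and at 253, 209, 204, 385 and 317 in B2D, with 2 deficient mice below the highest control and a log2 fold change of 0.74 (SE 0.20, limma adjusted p = 0.0724). Its close relatives Cyp2c50 and Cyp2c54, 96.1% and 95.1% identical to it in coding sequence, did not pass the test. Cyp2c50 was at 73.3 ± 11.9 in Ctrl+FF and 119 ± 31.3 in B2D+FF without overlap (limma adjusted p = 0.0803), and Cyp2c54 at 43.1 ± 16.9 and 78.9 ± 13.8 (limma adjusted p = 0.0692). The sum of the 3 genes was 151 ± 29.4 and 307 ± 71.5 with fenofibrate, a ratio of 2.03 without overlap, and 519 ± 101 and 601 ± 155 without it, where the groups overlapped.

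Cyp2c23 (chr19:44005022-44029208, minus strand) and the Cyp2j genes make epoxides of arachidonic acid. Cyp2c23 was at 48.5, 34.5, 46.2 and 38.8 in Ctrl+FF and at 18.9, 32.6, 23.8 and 24.3 in B2D+FF. Each deficient mouse was lower, with B2D+FF 2 close to the lowest control. Its log2 fold change was -0.75 (SE 0.17, limma adjusted p = 0.0407), and it passed only without B2D+FF 2 among the libraries left out, with adjusted p up to 0.118 otherwise. Without fenofibrate the level was 85.4 ± 15.6 in Ctrl and 54.2 ± 11.7 in B2D (log2 fold change -0.65, SE 0.17, limma adjusted p = 0.0670). Of the 4 tested members of the epoxygenase list, 0 passed without fenofibrate. At an unadjusted p under 0.05, 3 passed there, beside 18.4% of all genes. With fenofibrate Cyp2c23 passed, beside 2.21% of all genes called lower. Cyp2j5, the most abundant of the list, was at 188 to 258 in Ctrl and 103 to 225 in B2D (limma adjusted p = 0.174). With fenofibrate it was at 232 ± 17.6 and 193 ± 25.9 (0.237). The other 5 Cyp2j genes were not tested.

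All 4 members of the Cyp2a cluster were tested in both experiments and none passed, with a wide spread among the deficient mice for several of them. Cyp2a4, a steroid hydroxylase that is higher in females, was at 0.226, 0.0331, 0.204, 0.435 and 0.468 in Ctrl and at 1.34, 5.60, 1.64, 36.1 and 1.3 in B2D. The groups did not overlap, yet B2D 4 stood far above the rest, and the log2 fold change of 2.02 (SE 0.64) had a limma adjusted p of 0.121. Cyp2a4 reached the minimum mean FPKM of 0.5 in this experiment only through the B2D mice. Cyp2a22 was at 1.21, 1.00, 0.559, 0.614 and 1.89 in Ctrl and at 3.04, 7.45, 1.72, 26.2 and 6.34 in B2D, again highest in B2D 4 (log2 fold change 1.83, SE 0.49, limma adjusted p = 0.0713). Leaving out B2D 3 brought its adjusted p to 0.0284. With fenofibrate Cyp2a22 was at 36.5 ± 2.94 and 37.7 ± 3.42, a log2 fold change of 0.04 with an interval of -0.18 to 0.26. Cyp2a5, the coumarin hydroxylase, was at 212 ± 77.4 in Ctrl and 171 ± 114 in B2D, and at 110.2 ± 17.9 in Ctrl+FF and 204 ± 67.4 in B2D+FF (limma adjusted p = 0.545 and 0.114). Cyp2a4 and Cyp2a5 match at 98.5% of their coding bases, so reads shared between them are uncertain.

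The Cyp1 genes are induced by the aryl hydrocarbon receptor (AhR), and their values turned on 1 library. Cyp1a2 was at 91.3, 79.1, 71.5, 149 and 1906 in Ctrl and at 69.4, 47.4, 84.5, 72.2 and 48.4 in B2D. Cyp1a1 was at 0.303, 0.165, 0.200, 0.470 and 47.8 in Ctrl and at 0.0974, 0.126, 0.184, 0.314 and 0.208 in B2D. The mouse with the highest values was Ctrl 5 for both genes, and the remaining Ctrl mice overlapped the B2D mice. Neither gene passed the test (log2 fold change -1.44, SE 0.74, limma adjusted p = 0.324 for Cyp1a2, and -1.16, SE 0.86, limma adjusted p = 0.496 for Cyp1a1). Cyp1a1 reached the minimum mean FPKM of 0.5 only through Ctrl 5, so it was tested because of that library. The log2 ratio of their summed means was -2.86 with all libraries and -0.60 without Ctrl 5. With fenofibrate Cyp1a2 was at 34.1 ± 5.66 and 31.1 ± 7.74 (limma adjusted p = 0.689). Cyp1b1 was too low for the fit. It was at 0.0499 ± 0.0318 in Ctrl+FF and 0.130 ± 0.0293 in B2D+FF, without overlap, and an exact two-sided permutation test gave p = 0.0286, the smallest that 4 against 4 mice allow (0.143 after Benjamini-Hochberg adjustment over 5 such comparisons). Without fenofibrate Cyp1b1 overlapped between the groups (exact permutation p = 0.103, adjusted 0.172).

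**Figure D4:**
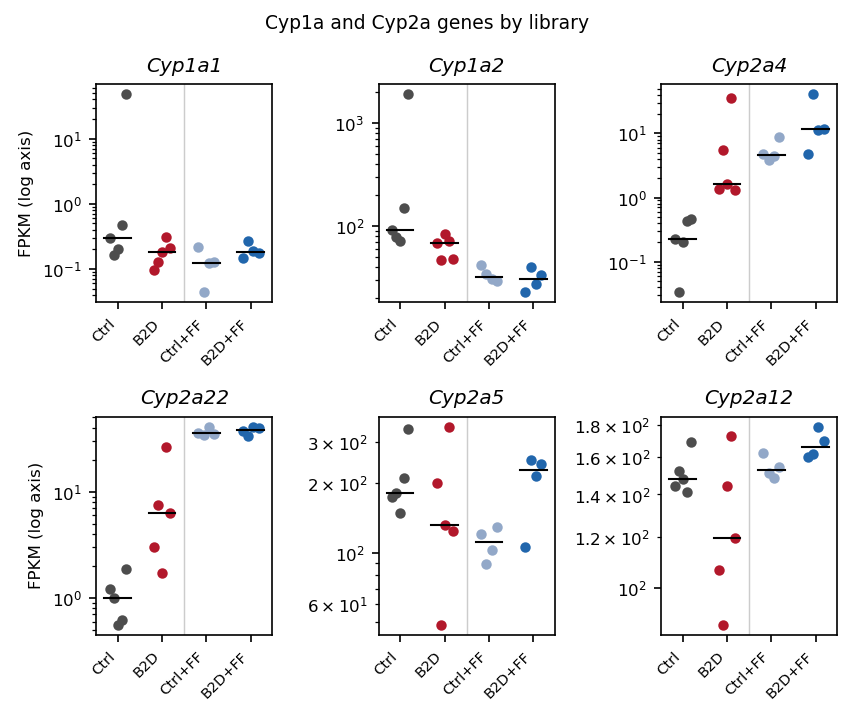
FPKM of Cyp1 and Cyp2a members in each library (logarithmic axes), with a point for each library and a line at the group median. Ctrl 5 stands apart at 1906 for Cyp1a2 and 47.8 for Cyp1a1, and B2D 4 at 36.1 for Cyp2a4.

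The Cyp3a members are relatives of the main drug-oxidizing enzyme of the liver, and none of those tested passed in either experiment. Of 8 members 3 were tested (Cyp3a13, Cyp3a25 and Cyp3a59), with limma log2 fold changes between 0.03 and 0.25 without fenofibrate and between 0.19 and 0.31 with it, and 0 passed at an unadjusted p under 0.05 in either. Cyp3a25 was at 404 ± 68.4 in Ctrl and 487 ± 117 in B2D, and the interval of its log2 fold change was -0.14 to 0.64. Cyp3a44, which is higher in females, stayed under the test's minimum at 0.0160 ± 0.0233 in Ctrl, from 0 to 2 reads, and 0.417 ± 0.278 in B2D, from 3 to 28 reads. Its B2D mice were all above the Ctrl mice, which was not tested.

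Cyp4 enzymes hydroxylate the far end of fatty acids and leukotrienes. Of 15 members, 7 were tested without fenofibrate, of which 2 were lower, beside 1.94% of all genes, and 5 had a value below 0. Their median log2 fold change was -0.52 against -0.0013 for all genes. With fenofibrate 8 were tested, all 8 had a value below 0 and 1 was lower, beside 2.21% of all genes. The median was -0.21 against 0.013. Cyp4a12b (chr4:115411624-115439034, plus strand) was at 57.0, 68.9, 60.4, 63.5 and 68.5 in Ctrl and at 17.6, 10.8, 39.0, 21 and 13.6 in B2D. No B2D mouse reached the Ctrl range, B2D 3 coming nearest. The log2 fold change was -1.73 (SE 0.26, 95% interval -2.29 to -1.16, limma adjusted p = 0.00717), the lowest of the members without fenofibrate, and it held with each library left out. With fenofibrate the levels were 114, 105, 84.0 and 120.1 in Ctrl+FF and 71.3, 68.6, 73.5 and 83.1 in B2D+FF. Every deficient mouse was again lower, with a log2 fold change of -0.50 (SE 0.13) that missed the threshold (limma adjusted p = 0.0577) and passed without Ctrl+FF 3. Cyp4a12b matches Cyp4a12a at 98.5% of coding bases, and the sum of both was lower in the deficient mice without overlap in both experiments, with ratios of 0.323 and 0.696.

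Cyp4f15 (chr17:32685627-32703352, plus strand) was at 76.0, 89.8, 94.9, 87.1 and 73.7 in Ctrl and at 54.3, 52.6, 49.3, 67.1 and 58.5 in B2D. Every B2D mouse was lower, by a log2 fold change of -0.57 (SE 0.11, limma adjusted p = 0.0256). The call was lost without Ctrl 2, Ctrl 4 or B2D 2 (adjusted p = 0.0773, 0.0753 and 0.0537). With fenofibrate the groups overlapped at 109.8 ± 7.03 and 93.0 ± 31.4 (limma adjusted p = 0.464). Cyp4f14 (chr17:32905071-32917342, minus strand), a leukotriene B4 hydroxylase, was at 10.5, 7.91, 9.76 and 9.05 in Ctrl+FF and at 1.68, 6.5, 4.30 and 2.58 in B2D+FF. All deficient mice were lower, with a log2 fold change of -1.22 (SE 0.27, limma adjusted p = 0.0413) that held only without B2D+FF 2 or B2D+FF 3 and otherwise rose to an adjusted p of up to 0.116. Without fenofibrate Cyp4f14 was at 38.1 ± 8.90 and 26.0 ± 8.22, with overlap (limma adjusted p = 0.216). Cyp4v3, a fatty acid hydroxylase whose human counterpart is mutated in a retinal dystrophy, was at 84.5 ± 5.29 in Ctrl and 59.6 ± 13.9 in B2D without overlap (limma adjusted p = 0.0865).

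**Figure D5:**
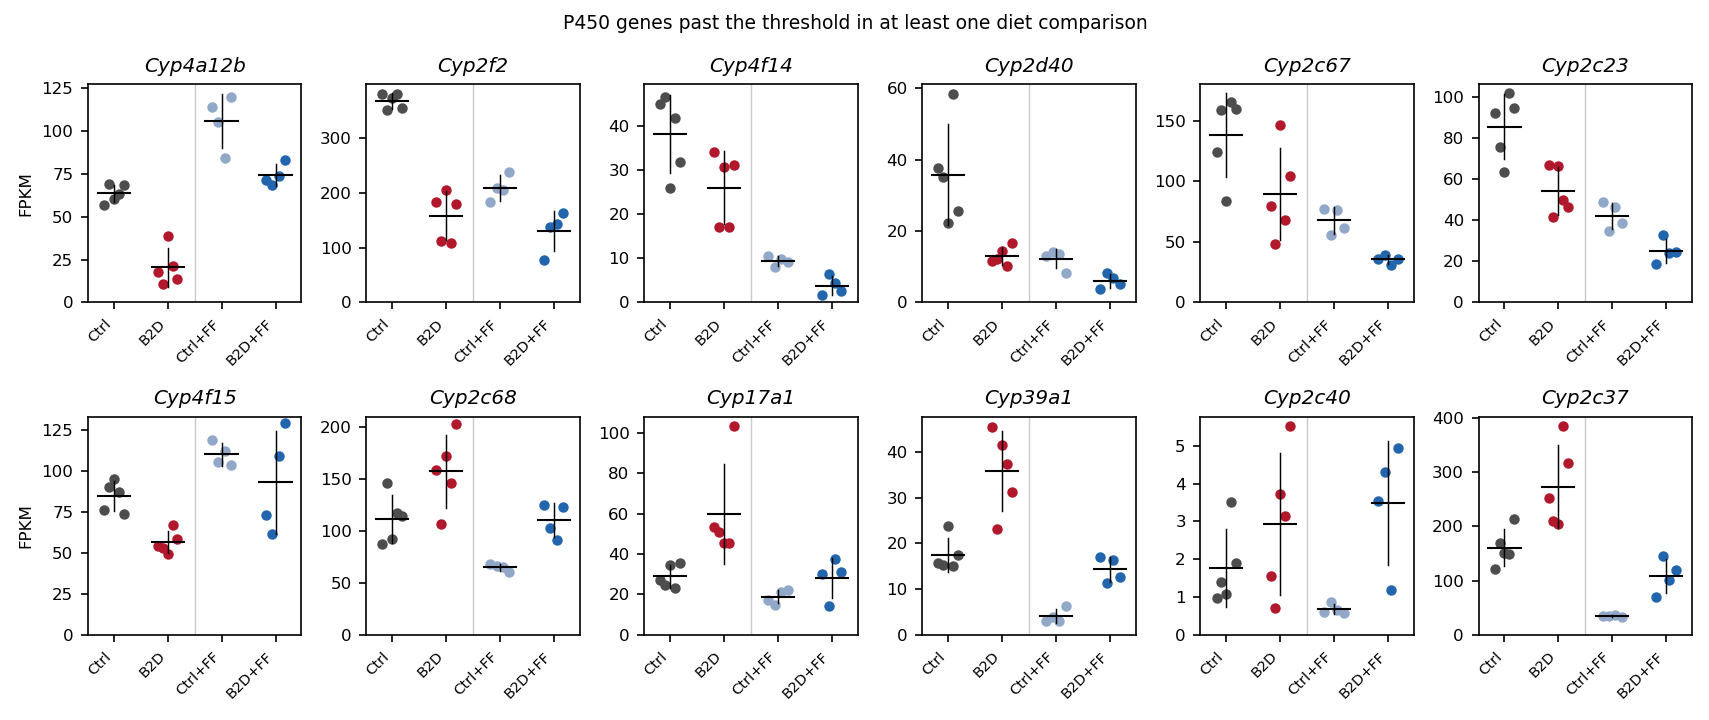
FPKM of the 12 members called in either experiment, with a point for each library, a line at the group mean and a bar for the SD, on linear axes from 0. Cyp2f2, Cyp2d40 and Cyp4a12b lie lower in both deficient groups, and Cyp39a1 higher on average in both.

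Cyp39a1 (chr17:43667425-43751431, plus strand) was at 15.7, 15.2, 23.8, 15.1 and 17.4 in Ctrl and at 45.6, 23.2, 41.6, 37.5 and 31.3 in B2D. The lowest B2D mouse fell just under the highest Ctrl mouse. The log2 fold change was 0.98 (SE 0.18, limma adjusted p = 0.0179) and the call was lost without Ctrl 2 or Ctrl 4 (adjusted p = 0.0623 and 0.0599). With fenofibrate it was at 3.09, 3.78, 3.0 and 6.32 in Ctrl+FF and at 17.1, 11.4, 16.3 and 12.6 in B2D+FF. Here the groups were well apart, with a log2 fold change of 1.63 (SE 0.20, 95% interval 1.17 to 2.09, limma adjusted p = 0.00420), the highest of the members with fenofibrate, which held with each library left out. On the sterol and bile acid list, 1 of 3 tested members, Cyp39a1, passed in each experiment, beside 0.769% and 2.24% of all genes called higher. The cholesterol 24-hydroxylase Cyp46a1, at 0.512 ± 0.0654 in Ctrl and 0.663 ± 0.240 in B2D, did not pass (limma adjusted p = 0.594). Cyp2c70, which makes muricholic acids, ranged from 7.24 to 15.9 in Ctrl and from 5.05 to 19.9 in B2D (0.927).

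Steroid and vitamin D enzymes were mostly under the minimum, and 2 of 9 were tested. Cyp17a1 (chr19:46667165-46672974, minus strand) was at 26.9, 24.6, 34.6, 23.0 and 35.5 in Ctrl and at 53.5, 50.7, 45.5, 45.3 and 103 in B2D. All B2D mice were higher, B2D 5 by the most, with a log2 fold change of 0.97 (SE 0.22, limma adjusted p = 0.0390). This call did not survive leaving out Ctrl 1, Ctrl 2, Ctrl 4, B2D 1, B2D 2 or B2D 4, with adjusted p between 0.0580 and 0.114. With fenofibrate the groups overlapped at 18.9 ± 3.38 and 28.2 ± 9.92 (limma adjusted p = 0.330). Cyp2r1, a vitamin D 25-hydroxylase, was at 4.64 ± 0.90 in Ctrl and 3.06 ± 0.575 in B2D (log2 fold change -0.47, SE 0.13, limma adjusted p = 0.0846), and at 4.02 ± 0.208 and 4.26 ± 0.382 with fenofibrate (0.674). The retinoic acid hydroxylases Cyp26a1 and Cyp26b1 did not pass either. Cyp26a1 was at 0.594 ± 0.171 in Ctrl and 1.36 ± 0.613 in B2D (limma adjusted p = 0.139).

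Further lists were written from general knowledge, with earlier results of these data known, and overlap those above. Over all genes tested, 1.94% were called lower and 0.769% higher without fenofibrate, and 2.21% and 2.24% with it. At an unadjusted p under 0.05, 18.4% and 21.2% of all genes passed. Of 46 drug-metabolizing Cyp1 and Cyp2 members, 27 were tested without fenofibrate, with 2 lower and 0 higher. With fenofibrate 26 were tested, with 3 lower and 3 higher. The median log2 fold changes were -0.14 without fenofibrate and 0.066 with it. Among 10 members described as higher in female than in male liver, 5 were tested without fenofibrate. They include Cyp2c40 and Cyp2c69, which match at 97.9% of coding bases, and Cyp2a4, which reached the minimum only through the B2D mice. All 5 had a value above 0 (median log2 fold change 0.97 against -0.0013 for all genes) and 2, Cyp17a1 and Cyp39a1, passed, beside 0.769% of all genes called higher. With fenofibrate 4 were tested, all above 0 (median 1.25 against 0.013), and Cyp39a1 and Cyp2c40 passed, beside 2.24% of all genes. The male-higher list held Cyp4a12b, lower without fenofibrate, and Cyp2u1, which did not pass in either experiment. Cyp2u1 had a log2 fold change of 0.074 without fenofibrate and -0.22 with it. All 6 pericentral members were tested, of which 0 passed and 5 lay below 0 without fenofibrate (median -0.18, 1 at an unadjusted p under 0.05). With fenofibrate 5 lay above 0 and Cyp2c37 passed (median 0.74 against 0.013 for all genes). Of these 5, Cyp2e1 lay at a log2 fold change of 0.0026, while Cyp1a2 lay below 0 at -0.15. Members responsive to the receptors CAR and PXR had 0 of 5 called without fenofibrate (median 0.035, 1 at an unadjusted p under 0.05) and 1 of 6 with it, Cyp2c37, with all 6 above 0 (median 0.50). The close relatives Cyp2c37, Cyp2c50 and Cyp2c54 are on both the pericentral and this list, so the shifts of these lists are not separate results. On the AhR list 0 of 2 and 0 of 1 passed, and 0 at an unadjusted p under 0.05 in both experiments. Of the 2, Cyp1a1 was tested only because of Ctrl 5. On the retinoic acid list 0 of 2 and 0 of 1 passed, with 1 and 0 at an unadjusted p under 0.05.

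Whether the diet effect differed with and without fenofibrate was asked with a limma contrast over the 18 libraries. It passed for 0 of 41 members tested in both tables, beside 0.145% of 11031 genes. At an unadjusted p under 0.05, 12 members (29.3%) passed, beside 11.9% of all genes. The lowest adjusted p was that of Cyp4a12b, with a difference of 1.23 (SE 0.33, limma adjusted p = 0.143), which passed when B2D 3 was left out (0.00689). Cyp2c54 followed with 1.13 (SE 0.35, limma adjusted p = 0.202) and Cyp2r1 with 0.54 (SE 0.16, limma adjusted p = 0.202). The calls that differ between the experiments were therefore not shown to differ in size. This contrast also carries the drug and the time on diet, which changed together with the table of values. Each diet effect was taken within its own table, so a scale common to a table largely cancels.

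The genes that serve the P450s with electrons and heme were read beside the members. Por was at 255 FPKM on average in Ctrl and 263 in B2D (limma log2 fold change 0.05, adjusted p = 0.894), and at 279.8 in Ctrl+FF and 374 in B2D+FF (0.40, limma adjusted p = 0.174). Fdxr was at 4.66 and 5.42, and at 6.36 and 6.84, and did not pass in either (limma adjusted p = 0.825 and 0.807). Cyb5r3, another flavoprotein of this list, was lower on average in both deficient groups but did not pass. It was at 53.3 in Ctrl and 40.0 in B2D, with overlap (log2 fold change -0.39, limma adjusted p = 0.245). With fenofibrate it was at 59.7 and 41.1, without overlap (-0.53, limma adjusted p = 0.0582). Of 12 tested genes in this list 2 were lower in B2D, beside 1.94% of all genes. They were Alas1, the first enzyme of heme synthesis (291 and 164, log2 fold change -0.85, limma adjusted p = 0.0143), and ferredoxin Fdx1 (26.4 and 17.6, log2 fold change -0.55, limma adjusted p = 0.0346). With fenofibrate 0 of 12 passed, and 3 passed at an unadjusted p under 0.05, beside 21.2% of all genes. Of 18 transcription factors and receptors that act on P450 genes, 1 was called higher in B2D, beside 0.769% of all genes. This was Cux2, a repressor known from female liver, at 0.0417 in Ctrl and 1.82 in B2D (log2 fold change 1.42, limma adjusted p = 0.000524). Cux2 reached the minimum mean FPKM of 0.5 only through the B2D mice, where it was high. With fenofibrate 17 were tested, and 1 was called lower, beside 2.21% of all genes. It was Cebpa, a hepatocyte factor (95.7 and 64.3, log2 fold change -0.57, limma adjusted p = 0.0205). Cux2 was under the minimum there and was not tested, at 0.0399 to 0.0527 in Ctrl+FF and 0.336 to 0.751 in B2D+FF, again higher without overlap. Of the 16 P450 genes left out by name, 15 were tested. Of these, 3 were lower and 2 higher without fenofibrate, and 2 lower and 3 higher with it, beside 1.94% and 0.769% of all genes without fenofibrate and 2.21% and 2.24% with it.

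RefSeq held promoters (250 bases before to 50 after the start) for 67 members, 77 promoters in all. The letters TTCNNNGAA, the core recognized by STAT factors, were found on either strand in those of 5 members, in 8.30% of all 32851 promoters. The AhR core GCGTG was in those of 15 members and in 32.4% of all promoters, and AGGTCA, an element bound by many nuclear receptors, in those of 17 members and in 16.3% of all promoters. The 5 with TTCNNNGAA were Cyp19a1, Cyp2j11, Cyp2j12, Cyp4b1 and Cyp4f13. Of the 12 called members 8 had a promoter to search, and none of those 8 held it. A match of letters is a description, not a site.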

How the data were processed

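RNA of whole liver was sequenced. The authors mapped reads to mm10 with STAR, counted them with featureCounts, used DESeq2, and deposited a table of FPKM values for each experiment, scaled on its own by median-of-ratios library sizes. The annotation version is not given in the sources used here. FPKM times gene length gave whole multiples of 1 step (tolerance 0.02), from which reads were recovered.

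limma 3.58.1 (R 4.3.3) was run on log2(FPKM + 1) for genes at a mean FPKM of 0.5 or more (variance trend, Benjamini-Hochberg threshold 0.05), each table alone. Fold changes on this scale understate low genes. Exact permutation tests were run for 5 comparisons of members under the minimum. The fit was tested on simulated data. The members and lists were chosen with earlier results of these data known. The list of Cyp1 and Cyp2 genes was read as families CYP1 and CYP2, and reading it by the letters Cyp1 would add Cyp17a1. Named are members past the threshold, the highest of each subfamily, those without overlap in both tables and list members. Mice are numbered within a group. Alternatives were other pseudocounts, filters, scalings, array weights, voom on the recovered reads, 1 fit of all groups, and each library left out. Sequences came from GENCODE M21 transcripts and RefSeq promoters.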

Additional observations from a re-analysis of the deposited data

Results flagged for a closer look

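In 8 of 174 groups of 4 or 5 libraries (4.60%), 1 library lay far from the others by Dixon's criterion, which flags about 1 in 20 groups by chance. Ctrl 5 held 2 of them, Cyp1a1 at 47.8 FPKM (other Ctrl mice 0.165 to 0.470) and Cyp1a2 at 1906 (71.5 to 149). Cyp17a1, called higher in B2D, was at 103 in B2D 5 against 45.3 to 53.5 in the other B2D mice, and the call held without that mouse. Cyp2d40, called lower with fenofibrate, was at 8.27 in Ctrl+FF 4 against 13.0 to 14.0 in the other Ctrl+FF mice, and its adjusted p fell without that mouse.

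In B2D, Cyp2u1 was at 1.74 in B2D 4 (others 2.53 to 2.81) and Cyp46a1 at 0.260 in B2D 3 (0.677 to 0.862). Among the Ctrl+FF mice, Cyp2d10 was at 375 in Ctrl+FF 3 (306 to 313) and Cyp4f16 at 0.403 in Ctrl+FF 2 (0.645 to 0.687). None of these 4 genes passed the limma test in the experiment concerned.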

How the results depend on the processing

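The count of members lower in B2D (4 as reported) was 11 at an unadjusted p, 2 with no filter and 7 with all 4 groups in 1 fit, and between 3 and 5 with a library left out. Members higher in B2D (2) were 11 at an unadjusted p, 4 with a pseudocount of 0.1 or a mean FPKM of at least 5, 0 with no filter, 6 with array weights or with all 4 groups in 1 fit, and 0 to 4 with a library left out (0 without Ctrl 2 or Ctrl 4, 4 without B2D 3). Members lower in B2D+FF (4) were 2 with no filter and with all 4 groups in 1 fit, and 1 to 5 with a library left out. Members higher in B2D+FF (4) were 10 at an unadjusted p and 8 with array weights, and 3 to 5 with a library left out. Voom on the recovered reads gave 5 lower and 3 higher in B2D, beside 264 and 139 of 11574 genes. It gave 6 lower and 6 higher in B2D+FF, beside 377 and 365 of 11878 genes. Its added calls were Cyp2c23 (lower) and Cyp2c37 (higher) without fenofibrate. With fenofibrate they were Cyp2f2 and Cyp4a12b (lower) and Cyp2c50 and Cyp2c54 (higher). The difference between the experiments (0) passed for 12 at an unadjusted p, 2 with array weights and 0 to 1 with a library left out (1, Cyp4a12b, without B2D 3). The no-filter fit tests every gene with a read in each table it uses, and the cause of the other shifts was not tested. With no filter the calls of Cyp2d40, Cyp4f15, Cyp17a1 and Cyp39a1 were lost without fenofibrate, and those of Cyp2c23, Cyp2c40, Cyp4f14 and Cyp2d40 with it.

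No called value reversed its direction. The reversals were of values that had not passed, the largest of which, Cyp2d26 without fenofibrate, was -0.26 as reported. Without fenofibrate Cyp20a1 went to 0.019 under upper-quartile rescaling and 0.057 under array weights (-0.095 to 0.089 with a library left out), Cyp2c50 to 0.014 and Cyp2d26 to 0.037 under quantile normalization, and Cyp2c70 to -0.11 under array weights. With a library left out, Cyp26b1 ranged from -0.12 to 0.18, Cyp2c50 from -0.22 to 0.067, Cyp2c70 from -0.16 to 0.29 and Cyp3a13 from -0.091 to 0.13. With fenofibrate Cyp2e1 went to -0.059 under upper-quartile rescaling and -0.018 under quantile normalization (-0.095 to 0.15 with a library left out) and Cyp2j6 to -0.035 under upper-quartile rescaling (-0.065 to 0.10). Cyp26b1 ranged from -0.31 to 0.067 and Cyp2j9 from -0.32 to 0.082 with a library left out. The Cyp1a sum moved from -2.86 to -0.60 without Ctrl 5 and to -5.72 without Cyp1a2, and with fenofibrate from -0.13 to 0.60 without Cyp1a2. Over all results with a test and all alternatives, 1038 values kept their side and direction, 38 gained a call or rose in count, 48 lost one or fell, and 30 reversed. No paired analysis was made. Each library came from a different mouse, and mice were numbered within a group, so equal numbers mark no pair. Depth limits members with few reads, such as Cyp2c40 with 20 to 206.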

Other observations

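Other members were high in a single mouse, and these genes were chosen after their values were seen. B2D 2 held reads of adrenal steroid enzymes: Cyp11b1 at 1.18 FPKM (64 reads), Cyp21a1 at 1.97, Cyp11a1 at 0.683 and Cyp11b2 at 0.108. In the same mouse Star was at 1.91, Hsd3b1 at 4.23 and Akr1b7 at 2.2. The adrenal markers Mc2r and Nr5a1 were at 0.038 (1 read) and 0.028 (2 reads) there, near the floor, and at 0 in the other 17 mice. The part of adrenal tissue in this mouse was not tested, and none of these 4 members entered a comparison above.

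In Ctrl 5, where Cyp1a1 and Cyp1a2 were far above the other Ctrl mice, the AhR-induced gene Nqo1 was at 7.73 against 3.02 to 4.41 in the other Ctrl mice, while Tiparp was at 1.28, Ahrr at 0.010 and Aldh3a1 at 0. Cyp2a4 was highest in B2D 4 at 36.1 and in B2D+FF 2 at 40.5.

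Cyp21a1 was at 0.263 ± 0.0784 in Ctrl+FF and 0.0434 ± 0.0386 in B2D+FF (n = 4 each), too low for the fit as reported.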
